A study of Rattus norvegicus with 418 samples.

Results

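Monocrotaline at 50 mg/kg was compared with its vehicle in rat liver 48 h after a single exposure, across all genes on the arrays. The 8 arrays were chosen by their labels alone, 4 from dosed rats and 4 from vehicle rats (0 mg/kg) of the same compound and time, out of 418 arrays in the series. All 8 rats were male F344/N rats aged 10 to 12 weeks, fasted for 12 to 18 h before exposure and dosed by gavage, in each case in corn oil. A single array was hybridised per rat, with RNA from the left lateral lobe of the liver, so each value stands for 1 animal. Further groups used for setting beside these were 4 rats at 10 mg/kg and 48 h, and the rats at 50 mg/kg and their vehicle rats at 6 h and at 24 h (8 rats at each time). The rat numbers below are only names, and no dosed rat is paired with a vehicle rat.

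Monocrotaline is a pyrrolizidine alkaloid of Crotalaria plants. Cytochrome P450 enzymes in hepatocytes turn it into a reactive pyrrole that binds DNA and proteins, and it is known in rats for injury to the endothelium of the liver sinusoids and of the lung. The liver slows this by conjugating the pyrrole with glutathione, while damaged DNA engages p53, which raises genes that stop the cell cycle, repair DNA or start cell death.

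The dosed livers carried little necrosis by the scores in the labels, 2 in dosed rat 1 and 1 in each of dosed rats 2, 3 and 4, against 0 in all 4 vehicle rats. The mean score was 1.25 ± 0.5 in dosed rats and 0 in vehicle rats (SD, n = 4 each; exact two-sided permutation test, p = 0.0286, the smallest p that 4 against 4 can give). The rats at 10 mg/kg all scored 0. The 12 arrays of 48 h were hybridised on 1 day. Correlations between arrays across genes were 0.958 to 0.962 among dosed rats, 0.945 to 0.960 between dosed and vehicle rats, and 0.956 to 0.967 among vehicle rats. Signals under 16 were rarest in dosed rat 4 and vehicle rat 4, with 11.4% of probe sets in dosed rat 4, while the other 6 arrays had 13.7 to 14.7%. Depth is not defined for arrays, and the number of rats limits the precision.

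At 48 h, 1321 of 14217 genes passed an adjusted p of 0.05 (9.29%; limma with Benjamini-Hochberg adjustment over all genes). Of these, 727 were higher at 50 mg/kg (5.11% of all genes) and 594 were lower (4.18%). The change was at least 2-fold for 142 of the higher (0.999% of all genes) and 95 of the lower genes (0.668%), and the median change over all genes was -0.00 on the log2 scale. The count was 845 without dosed rat 2, and 628 when all arrays of the series shared 1 estimate of the spread. Dosed rat 2 had the highest signal of the 4 dosed rats for 343 of the 727 higher genes and the lowest for 237 of the 594 lower genes. Dosed rat 3 had the smallest shifts, with medians of 0.41 for the higher and -0.40 for the lower genes. Changes throughout are differences of mean log2(signal + 16), dosed minus vehicle, with their standard error, and understate the change of dim genes. In these samples of whole liver, fewer cells of a type and less RNA per cell cannot be told apart.

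**Figure D1:**
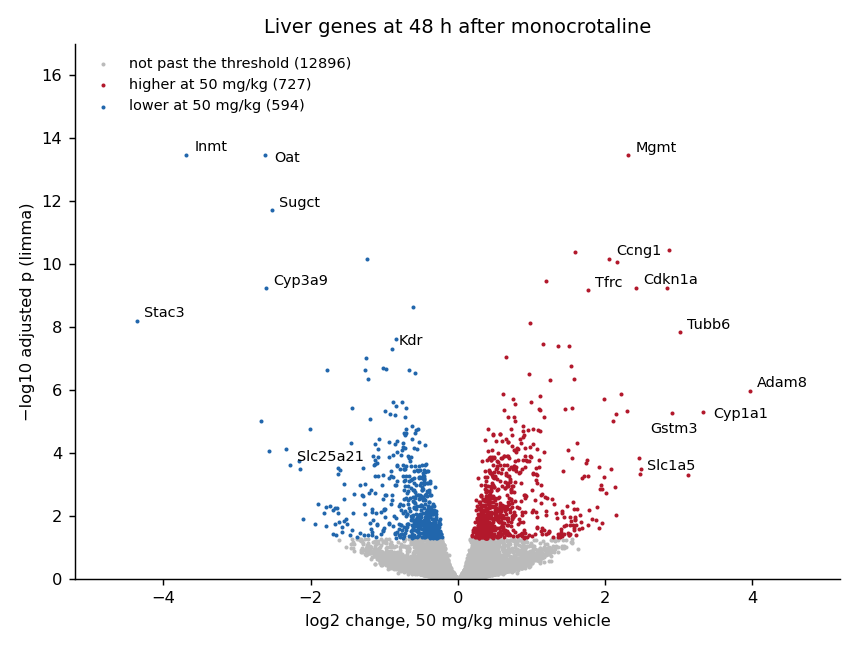
Each point is 1 of 14217 genes, with its log2 change (50 mg/kg minus vehicle, 48 h) on the x axis and −log10 of the limma adjusted p on the y axis. The 727 higher genes are red and the 594 lower genes blue, with Mgmt, Inmt, Oat and Sugct nearest the top and Adam8 and Stac3 farthest to the sides.

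The largest rise was that of Adam8, a membrane metalloprotease of activated leukocytes and injured tissue. Its signal was 779, 574, 1087 and 579 in dosed rats, against 45.8, 11.5, 50.8 and 29.0 in vehicle rats, a change of 3.97 ± 0.53 (adjusted p = 1.05e-06). Every dosed rat lay above every vehicle rat. A dimmer second probe set of Adam8 gave -0.62 ± 0.50 (adjusted p = 0.577), so the rise rests on 1 probe set (1.67 for the mean of both, adjusted p = 0.00191). The next were Cyp1a1, the oxidase best known as a target of the aryl hydrocarbon receptor, at 3.33 ± 0.48 (adjusted p = 5.17e-06), and Tubb6, a beta-tubulin that is low in normal liver, at 3.02 ± 0.33 (adjusted p = 1.47e-08). Cyp1a1 read 232 to 414 in dosed rats and 9.06 to 27.7 in vehicle rats. Its relative Cyp1a2, which shares that receptor, went the other way, at -0.58 ± 0.16 (adjusted p = 0.0175), with 11900 to 16560 in dosed rats and 19170 to 20960 in vehicle rats. The call of Cyp1a2 was lost without dosed rat 3 and without dosed rat 4 (adjusted p up to 0.0612). A dim second probe set of Tubb6 gave 0.07 ± 0.48, and the mean of both gave 1.55 (adjusted p = 0.00228).

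Among the other 12 of the 15 largest rises were Gstm3 (2.91), a glutathione transferase, and Serpina7 (2.87), thyroxine-binding globulin. Mybl1 (2.85), a transcription factor related to the Myb oncogene, the glutamine carrier Slc1a5 (2.48), the retinol-binding protein Rbp7 (2.30), the carboxylesterase Ces2c (2.16) and the islet autoantigen Ica1 (2.15) followed. Serpina7 was 1694 to 2368 in dosed rats and 188 to 470 in vehicle rats. Ces2c was 3394 to 5374 in dosed rats and 667 to 1034 in vehicle rats. The groups did not overlap in any of these genes, which the choice of the largest rises required.

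The largest fall was that of Stac3, an adaptor protein best known from skeletal muscle, with 695, 178, 473 and 1136 in dosed rats, against 11260, 11790, 10530 and 9931 in vehicle rats. The change was -4.36 ± 0.46 (adjusted p = 6.38e-09), and dosed rat 2 was the lowest. Inmt, an N-methyltransferase of small amines, was 409, 214, 410 and 259 in dosed rats, against 4427, 6484, 4126 and 2686 in vehicle rats (-3.70 ± 0.25, adjusted p = 3.34e-14). Oat, ornithine aminotransferase of the pericentral hepatocytes, was 2122 to 3142 in dosed rats and 11240 to 18720 in vehicle rats (-2.62 ± 0.18, adjusted p = 3.34e-14). In all 3 genes the dosed rats stood far below every vehicle rat, though the choice of the largest falls required groups without overlap. Nrep fell by 2.15, Spin2b by 2.15, Sds, serine dehydratase, by 2.10 and Shbg, the sex hormone-binding globulin, by 1.90. The call of Sds was lost without dosed rat 2 (adjusted p = 0.0548). Lrrc4, the smallest fall but 1 of the 15 named, was at the floor in dosed rats, at 6.58 to 15.6 against 52.8 to 111 in vehicle rats. Its other probe set gave 0.70 ± 0.44, with no call for the mean of both (-0.62, adjusted p = 0.382), and its call was lost without vehicle rat 3 (adjusted p = 0.0547).

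Targets of p53 were higher in part. Of 22 measured members of the list of p53 and DNA damage genes, 9 rose and none fell, with a median change of 0.51, beside 5.11% higher, 4.18% lower and a median of -0.00 over all genes. In 7 members every dosed rat lay above every vehicle rat, as in 7.54% of all genes. Mgmt, the alkylguanine repair protein that removes methyl groups from DNA bases, was 4479, 3802, 5087 and 3811 in dosed rats, against 1054, 910, 683 and 778 in vehicle rats, a change of 2.31 ± 0.16 (adjusted p = 3.48e-14). Cdkn1a, the p21 inhibitor of cyclin-dependent kinases, was 5211, 4167, 4585 and 5447 in dosed rats, against 842, 863, 1040 and 831 in vehicle rats (2.42 ± 0.23, adjusted p = 5.75e-10). Both genes were several-fold higher in each dosed rat than in any vehicle rat, and the dosed rat with a necrosis score of 2 was not set apart. A second probe set of Cdkn1a gave 2.42 ± 0.36.

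Ccng1, cyclin G1, a feedback partner of the p53 regulator Mdm2, was 3747 to 4678 in dosed rats and 927 to 1089 in vehicle rats (2.05 ± 0.18, adjusted p = 6.79e-11). The death receptor Fas changed by 1.58 ± 0.20, Phlda3, an inhibitor of Akt signalling, by 1.26 ± 0.16 and Mdm2, which targets p53 for degradation, by 1.17 ± 0.17. None of these 4 genes had overlapping groups. The 2 other probe sets of Fas, both dim, gave 0.15 and -0.09, and the mean of the 3 gave 0.55 with no call (adjusted p = 0.224). The nuclease Aen (0.87 ± 0.16), the growth arrest gene Gadd45a (1.15 ± 0.26) and the RNA-binding protein Zmat3 (0.66 ± 0.18) completed the 9. Gadd45a and Zmat3 had overlapping groups, and the call of Zmat3 was lost without vehicle rat 1 and without dosed rat 4 (adjusted p up to 0.0917). The other 13 members, which did not pass, included the stress cytokine Gdf15 (0.67), the death effector Bbc3 (0.10), the repair factors Xpc (-0.34) and Ddb2 (-0.16), and Sesn1 (0.12). Without dosed rat 3, Xpc was -0.55 and passed (adjusted p = 0.00428).

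The p53 protein binds DNA at pairs of a 10-base element, so the proximal promoters were searched on both strands for a single such p53 element, a pattern that reads the same on each strand. Of the 9 genes that rose, 8 had a promoter sequence in RefSeq (build GRCr8, 250 bases before to 50 bases after the gene's start), and 4 of these held a element. Of the 13 members that did not pass, 9 had a promoter and 2 held one (Ei24 and Sesn1). Over all promoters of this length in RefSeq, 7.98% held one (2671 promoters). The 4 stretches are shown because they carry the matches in the genes that rose, from upstream to downstream, with the element in capitals. They lie at chr20:7150706-7150765 on the + strand (Cdkn1a, element starting 201 bases before the gene's start), chr10:25685074-25685126 on the - strand (Ccng1, 232 bases before), chr1:142224478-142224532 on the + strand (Aen, 30 bases before) and chr4:97486813-97486872 on the - strand (Gadd45a, 48 bases before). A match is a run of letters, and no binding was measured.
Cdkn1a: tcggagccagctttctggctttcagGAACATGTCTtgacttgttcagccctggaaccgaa
Ccng1: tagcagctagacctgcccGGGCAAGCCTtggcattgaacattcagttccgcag
Aen: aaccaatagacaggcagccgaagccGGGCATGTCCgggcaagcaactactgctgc
Gadd45a: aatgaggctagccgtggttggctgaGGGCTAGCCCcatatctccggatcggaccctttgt

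**Figure D2:**
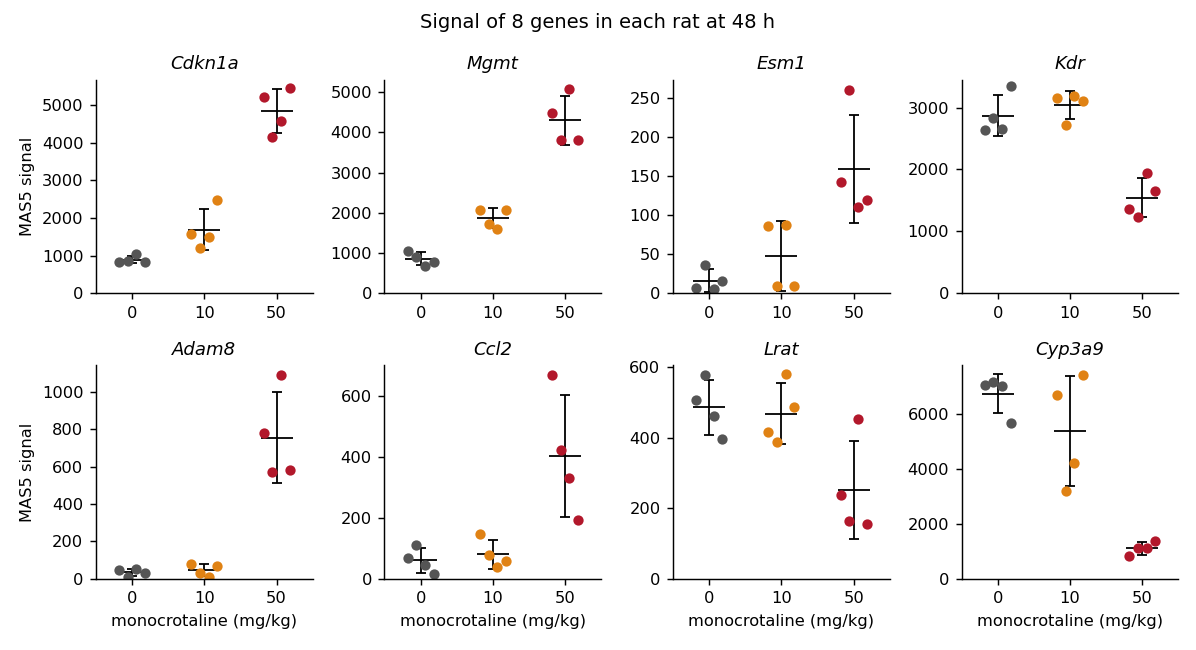
Signal (linear MAS5 scale) of 8 genes in each rat at 48 h, by dose in mg/kg (0 is vehicle), with a horizontal line at the mean and bars of 1 SD (n = 4 rats per dose). Cdkn1a, Mgmt, Esm1, Adam8 and Ccl2 were higher and Kdr, Lrat and Cyp3a9 lower at 50 mg/kg than in vehicle rats, with 1 dosed rat inside the vehicle range for Lrat.

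The endothelium of the sinusoids, the compound's known cellular target, was read through 24 measured markers. Of these, 4 fell and 1 rose, and the median change was -0.15, where 4.18% of all genes fell and 5.11% rose. Kdr, the main receptor of vascular endothelial growth factor, was 1360, 1235, 1941 and 1647 in dosed rats, against 2640, 2827, 2649 and 3344 in vehicle rats (-0.90 ± 0.10, adjusted p = 4.79e-08). Tek, the angiopoietin receptor, was 539 to 709 in dosed rats and 794 to 993 in vehicle rats (-0.59 ± 0.12, adjusted p = 0.000912). The groups of both receptors did not overlap. Ptprb, a phosphatase that acts on Tek, changed by -0.54 ± 0.15 (adjusted p = 0.0171) and the secreted nuclease Dnase1l3 by -0.28 ± 0.09 (adjusted p = 0.0466). The call of Ptprb was lost without dosed rat 1 (adjusted p = 0.0923) and that of Dnase1l3 without dosed rats 1 or 2 or vehicle rats 2 or 4 (adjusted p up to 0.275). A dimmer second probe set of Ptprb gave -0.18 ± 0.17, and the mean of both gave -0.36 with no call (adjusted p = 0.0637). A dim second probe set of Kdr gave 0.50 ± 0.42, and the mean of both gave -0.20 with no call (adjusted p = 0.695).

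Lyve1, the hyaluronan receptor of sinusoidal and lymphatic endothelium, went up by 0.48 ± 0.11 (adjusted p = 0.00238), with 3904 to 4340 in dosed rats and 2544 to 3913 in vehicle rats, and a second probe set gave 0.47 ± 0.10. The lowest dosed rat lay just under the highest vehicle rat. The scavenger receptors Stab2 (-0.67 ± 0.25, adjusted p = 0.0918) and Stab1 (-0.37 ± 0.22) and the adhesion molecule Pecam1 (-0.10 ± 0.19) did not pass. The summed signal of the 24 markers was 17670 to 19560 in dosed rats and 18950 to 24410 in vehicle rats. Esm1, endocan, a secreted proteoglycan of sprouting endothelium, was outside this list and rose by 2.46 ± 0.44 (adjusted p = 0.000148). It was 143, 260, 111 and 120 in dosed rats, against 7.20, 36.4, 5.39 and 15.4 in vehicle rats, with dosed rat 2 the highest.

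Clotting genes were read in 2 lists. Of 15 measured genes that control tissue factor, fibrinolysis and platelets, 6 rose and none fell, with a median of 0.45, where 5.11% of all genes rose and 4.18% fell. The thrombin receptor thrombomodulin (Thbd) was 660, 644, 324 and 727 in dosed rats, against 245, 263, 234 and 250 in vehicle rats (1.14 ± 0.26, adjusted p = 0.00223). Dosed rat 3 was the lowest of the dosed rats and still above the vehicle rats. Procr, the receptor of activated protein C, changed by 1.21 ± 0.28 and S100a10 and Anxa2, which together hold plasminogen at the cell surface, by 0.95 ± 0.15 and 0.88 ± 0.16. A dim second probe set of Anxa2 gave -0.09 ± 0.51, and the mean of both gave 0.39 with no call (adjusted p = 0.476). Plaur, the urokinase receptor (1.60 ± 0.44), was dim, and dosed rat 1 (10.8) read within the vehicle range of 4.70 to 24.3. The call of Plaur was lost without dosed rat 2 and without dosed rat 4 (adjusted p up to 0.0673), and its second probe set gave 0.04. That of Tfpi, the inhibitor of tissue factor (0.45 ± 0.15), was lost without dosed rats 1, 2 or 4 or vehicle rats 1 or 2 (adjusted p up to 0.184). The 2 other probe sets of Thbd, both dimmer, gave 0.08 and 0.36 with no call, and the mean of the 3 gave 0.52 (adjusted p = 0.277). With all arrays of the series in 1 limma fit, only Procr of the 6 passed. The adjusted p of the others there ran from 0.092 (Thbd) to 0.312 (Anxa2). Among 16 factors and inhibitors secreted by the liver, 2 fell, F12 (-0.44 ± 0.07) and Pros1, protein S (-0.29 ± 0.08), and none rose, with a median of -0.06. In the fit of all arrays Pros1 did not pass (adjusted p = 0.212).

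Of 25 measured matrix and stellate cell genes, 5 rose and 2 fell, with a median of 0.21, where 5.11% of all genes rose and 4.18% fell. Col4a1, a basement membrane collagen chain, was 1250, 1457, 1012 and 1260 in dosed rats, against 658, 592, 684 and 565 in vehicle rats (0.97 ± 0.12, adjusted p = 3.17e-07), and a second probe set gave 0.91 ± 0.16. Decorin (Dcn, 1.12 ± 0.18), vimentin (Vim, 0.78 ± 0.13) and the fibrillar chain Col5a2 (0.69 ± 0.14) also rose, each with no overlap, as did Rgs5, a pericyte gene whose call was lost in 5 of the 8 fits that left out 1 rat (adjusted p up to 0.176). The fibrillar collagens Col1a1 (0.49), Col3a1 (-0.16) and Col1a2 (-0.17) and smooth muscle actin Acta2 (-0.19) did not pass. The 2 that fell were Lrat, which stores retinol in quiescent stellate cells, and Colec11, a soluble lectin whose call was lost without dosed rat 2 (adjusted p = 0.123). Lrat was 238, 163, 453 and 155 in dosed rats, against 506, 578, 461 and 395 in vehicle rats (-1.02 ± 0.23, adjusted p = 0.00286), and dosed rat 3 lay within the vehicle range. Of 15 matrix proteases and inhibitors, Adam8 and Timp1 rose and none fell. Timp1, the main inhibitor of matrix metalloproteases, was 490 to 965 in dosed rats and 212 to 259 in vehicle rats (1.55 ± 0.22). Serpinh1, the collagen chaperone, changed by 0.94 ± 0.17 and was 830 to 1458 in dosed rats and 430 to 648 in vehicle rats.

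Chemokines and leukocyte markers varied among the dosed rats. Of 23 cytokines and chemokines, 3 rose (Ccl2, Cxcl1 and Ccl3) and 1 fell (Cxcl12), where 5.11% of all genes rose and 4.18% fell. The call of Ccl3 was lost in 5 of the 8 fits that left out 1 rat (adjusted p up to 0.158). Ccl2, which draws in monocytes, was 668, 421, 332 and 193 in dosed rats, against 68.8, 112, 45.6 and 16.8 in vehicle rats (2.49 ± 0.47, adjusted p = 0.000324). Cxcl1, which draws in neutrophils, was 3537, 3878, 195 and 2286 in dosed rats, against 67.2, 116, 180 and 514 in vehicle rats (3.13 ± 0.62, adjusted p = 0.000516). Dosed rat 3 stayed within the vehicle range for Cxcl1, while the other 3 lay far above the highest vehicle rat. The calcium-binding proteins S100a9 (1.68 ± 0.34) and S100a8 (1.22 ± 0.38) of neutrophils also rose, both with overlap, and the call of S100a8 was kept only without dosed rat 3 or vehicle rat 4 among the 8 fits that left out 1 rat (adjusted p up to 0.162). Of 8 neutrophil markers these 2 passed, and the receptors Csf3r and Cxcr2 were dim in both groups, at means of 28.9 and 21.8 in dosed rats and 40.1 and 9.57 in vehicle rats. The summed signal of the 8 was 895 to 2237 in dosed rats and 650 to 1278 in vehicle rats. Cxcl12, the chemokine that stromal and endothelial cells make, changed by -0.68 ± 0.12, and its 2 other probe sets gave -0.71 and -0.76. With all arrays of the series in 1 limma fit, Cxcl1 passed, while Ccl2 (adjusted p = 0.082), Ccl3 (0.421) and Cxcl12 (0.0541) did not. Neither S100a9 (adjusted p = 0.15) nor S100a8 (0.4) passed there.

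Macrophage markers moved in both directions. All 8 measured Kupffer cell markers, which label the resident macrophages, had a change under 0, with a median of -0.36, and 4 passed. Clec4f, the lectin particular to rodent Kupffer cells, was 2421, 2244, 2217 and 3460 in dosed rats, against 4084, 3534, 3598 and 4660 in vehicle rats (-0.63 ± 0.13, adjusted p = 0.000706). The complement chains C1qa (-0.64 ± 0.12) and C1qc (-0.58 ± 0.13) fell with no overlap, and Cd5l (-0.33 ± 0.11) kept its call only without dosed rat 4 among the 8 fits that left out 1 rat (adjusted p up to 0.236). The summed signal of the 8 was 9802 to 14460 in dosed rats and 15200 to 18720 in vehicle rats, with no overlap. For single genes, 6.41% of all had every dosed rat below every vehicle rat. Of 15 markers of recruited macrophages, 4 rose and 1 fell, where 5.11% of all genes rose and 4.18% fell. Gpnmb, a glycoprotein of phagocytes, was 2800, 2557, 2027 and 3149 in dosed rats, against 799, 915, 772 and 1102 in vehicle rats (1.53 ± 0.19, adjusted p = 1.77e-07). Galectin-3 (Lgals3, 1.10 ± 0.16), lysozyme (Lyz2, 0.49 ± 0.10) and Itgax (1.40 ± 0.43) also rose, while the endotoxin coreceptor Cd14 fell (-0.59 ± 0.16). The call of Cd14 was lost without vehicle rat 1 (adjusted p = 0.0717), and that of Itgax was kept only without dosed rat 4 or vehicle rat 3 (adjusted p up to 0.109). With all arrays of the series in 1 limma fit, neither the 4 rises nor the fall passed. The adjusted p there ran from 0.0649 (Gpnmb) to 0.391 (Lyz2). Cd68 gave 0.03 ± 0.13. Of 19 lymphocyte and NK markers, 1 fell and none rose, near the share of all genes that fell.

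**Figure D3:**
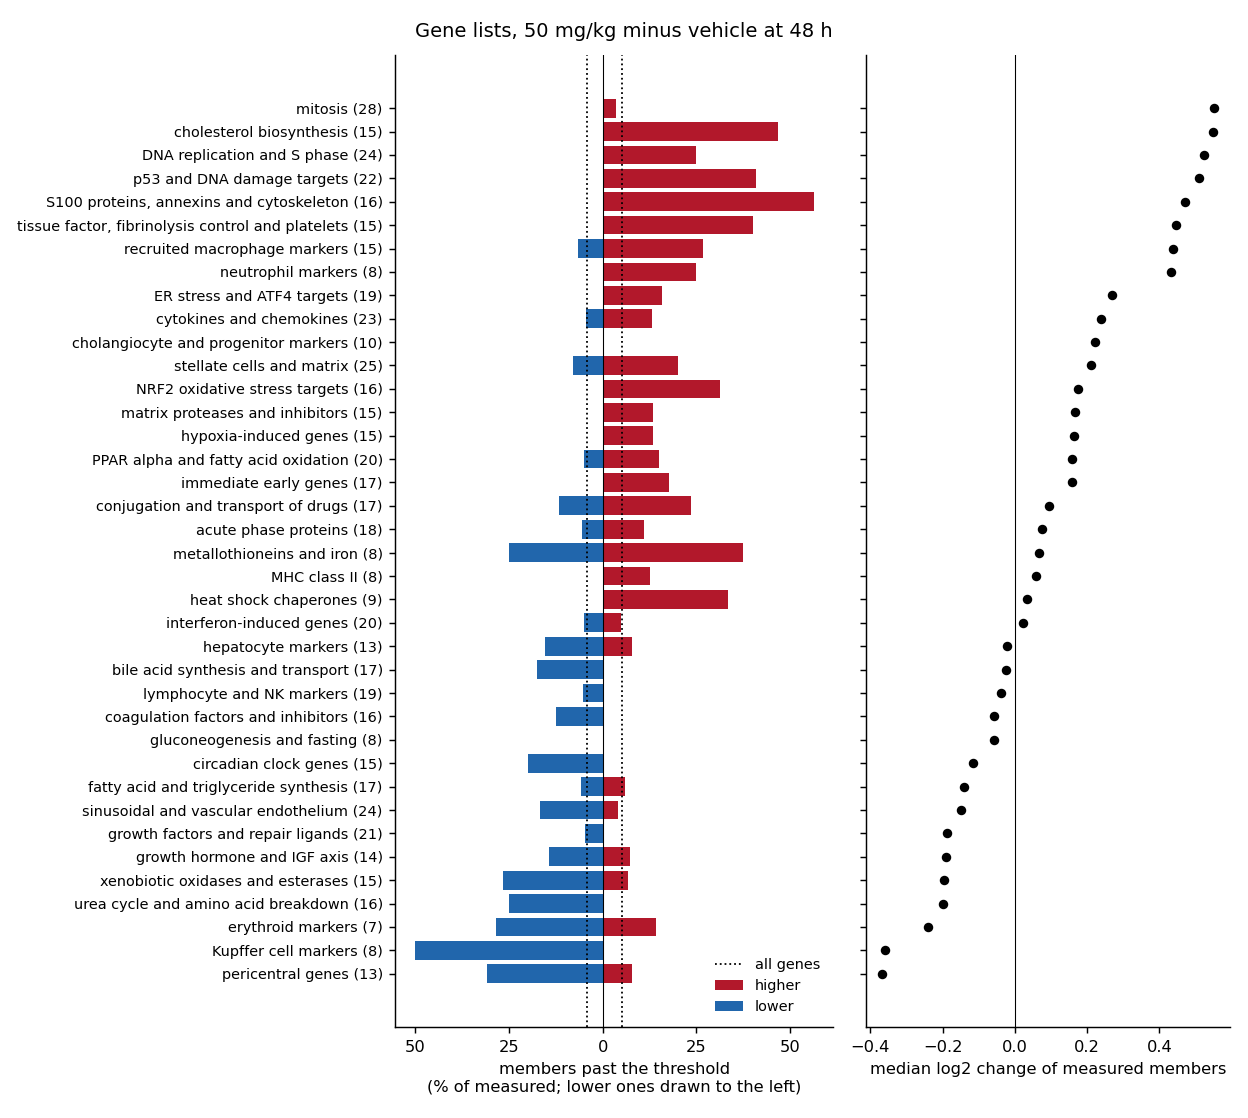
For each of 38 gene lists, with the number of measured members in brackets, the left panel gives the percentage of members that passed the threshold (higher to the right in red, lower to the left in blue) beside the same percentages over all genes (dotted lines, 5.11% and 4.18%), and the right panel the median log2 change at 48 h. The lists for mitosis, cholesterol biosynthesis, S phase and p53 targets had the highest medians, and pericentral genes and Kupffer cell markers the lowest.

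Cell cycle genes were read in 2 lists. Of 24 genes of DNA replication and S phase, 6 rose and none fell, with a median of 0.52, where 5.11% of all genes rose. Pcna, the sliding clamp of DNA polymerase, was 2549, 2776, 1763 and 2228 in dosed rats, against 1700, 1567, 1559 and 1699 in vehicle rats (0.49 ± 0.10, adjusted p = 0.00121). Thymidylate synthase (Tyms) changed by 1.31 ± 0.31, the methylation maintenance factor Uhrf1 by 1.60 ± 0.44 and the helicase subunits Mcm5 and Mcm7 by 1.07 ± 0.32 and 0.67 ± 0.18. Mcm5 lost its call without dosed rats 1 or 4 or vehicle rats 3 or 4 (adjusted p up to 0.0767), Mcm7 without dosed rat 1 or vehicle rat 4 (up to 0.122) and Uhrf1 without vehicle rat 4 (0.0891). Of 28 mitosis genes, 25 had a change above 0, as had 49.5% of all genes, and the median was 0.55. The share that passed was not above that of all genes, since 1 member passed, Prc1, which bundles spindle microtubules (1.87 ± 0.52, adjusted p = 0.0139), and it did not pass without dosed rat 2 or without vehicle rat 2 (adjusted p up to 0.0885). Cdk1, the mitotic kinase, was 389, 351, 101 and 188 in dosed rats, against 108, 9.54, 153 and 55.4 in vehicle rats (1.63 ± 0.64, adjusted p = 0.11). The spread was similar for Mki67 (1.41 ± 0.54) and Top2a (1.44 ± 0.56), with dosed rat 3 lowest of the dosed rats in all 3. Without dosed rat 3, Mki67 (1.70, adjusted p = 0.0497) and Top2a (1.85, adjusted p = 0.0329) passed.

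S100 proteins, annexins and cytoskeletal genes had the highest share of members that rose among the 38 lists. Where 5.11% of all genes rose, 9 of these 16 rose with none lower. Beside Tubb6 and Anxa2, these included S100a4, a calcium-binding protein of motile cells, with 260 to 439 in dosed rats and 45.6 to 160 in vehicle rats (2.08 ± 0.40), S100a11 (0.98 ± 0.17) and Tubb5 (0.73 ± 0.14). With all arrays of the series in 1 limma fit, Tubb6 and Tubb5 passed. S100a4 (adjusted p = 0.0738), S100a11 (0.23) and Anxa2 (0.312) did not.

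Genes of drug oxidation and conjugation moved unevenly. Of 15 oxidases and esterases, 4 fell and 1, Ces2c, rose, where 4.18% of all genes fell and 5.11% rose. Cyp3a9, a steroid and drug oxidase, was 818, 1127, 1109 and 1391 in dosed rats, against 7052, 7176, 7037 and 5682 in vehicle rats (-2.60 ± 0.25, adjusted p = 5.91e-10). Its relatives Cyp3a18 (0.07) and Cyp3a2 (-0.01) did not pass. Cyp2a2 (-0.48 ± 0.10) and Cyp4a1 (-0.71 ± 0.19) fell with no overlap, Cyp4a1 not without dosed rat 4 (adjusted p = 0.0526). Of 16 targets of NRF2, the sensor of electrophiles, 5 rose and none fell. Ephx1, microsomal epoxide hydrolase, was 19970 to 31940 in dosed rats and 12100 to 15190 in vehicle rats (0.86 ± 0.14, adjusted p = 4.83e-05), and the aldehyde reductase Akr7a3 was 3022 to 6612 in dosed rats and 1756 to 2394 in vehicle rats (1.12 ± 0.24). Heme oxygenase Hmox1 (0.77 ± 0.18), Txnrd1 (0.28 ± 0.08) and Akr1b8 (1.14 ± 0.34) followed, with overlap for Hmox1 and Akr1b8. Txnrd1 lost its call without dosed rats 1 or 2 or vehicle rats 1 or 4 (adjusted p up to 0.0676), and Akr1b8 without dosed rat 4 or vehicle rat 3 (up to 0.271). Txnrd1 also lost its call for the mean of its 2 probe sets (0.21, adjusted p = 0.215). With all arrays of the series in 1 limma fit, only Ephx1 of the 5 passed. The adjusted p of the others there ran from 0.12 (Akr1b8) to 0.641 (Txnrd1). With the compared groups alone, Hmox1 (adjusted p = 0.0873) and Akr1b8 (0.233) did not pass. Other NRF2 targets had values near 0 or under it, such as Nqo1 (-0.25) and Gclc (-0.28). The glutathione transferase Gstm1 changed by 0.47 ± 0.10, and the hepatocyte uptake carrier Slco1b2 by -0.41 ± 0.10.

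Cholesterol synthesis was the metabolic pathway with the most members higher, 7 of 15 with none lower and a median of 0.55. Over all genes 5.11% rose and 4.18% fell. Fdps, which makes farnesyl diphosphate, was 20700, 24050, 24280 and 19860 in dosed rats, against 10210, 13430, 11630 and 12700 in vehicle rats (0.89 ± 0.14, adjusted p = 1.4e-05). Sqle, squalene epoxidase, was 1079 to 1751 in dosed rats and 261 to 652 in vehicle rats (1.43 ± 0.28), and Idi1 was 5057 to 8198 in dosed rats and 2621 to 3377 in vehicle rats (1.10 ± 0.21). Fdft1 (0.80), Hsd17b7 (0.75), Msmo1 (0.75) and Lss (0.71) completed the 7. With all arrays of the series in 1 limma fit, only Sqle of the 7 passed. The adjusted p of the others ran from 0.0545 (Fdps) to 0.313 (Msmo1). Msmo1 kept its call only without dosed rats 1 or 4 or vehicle rat 2 among the 8 fits that left out 1 rat (adjusted p up to 0.129). The brake of the pathway, Insig1 (-0.52 ± 0.25), did not pass. Of 17 fatty acid and triglyceride genes, Acaca, acetyl-CoA carboxylase, rose, with 5435 to 8248 in dosed rats and 2737 to 4802 in vehicle rats (1.02 ± 0.20), and Dgat2 fell (-0.36 ± 0.08). Fasn, fatty acid synthase (0.76 ± 0.31), and Scd (-0.72 ± 0.49) did not pass. Fasn was 1.12 and passed without dosed rat 2 (adjusted p = 0.0201) and without vehicle rat 2 (adjusted p = 0.0174).

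Amino acid breakdown was lower in 4 of 16 genes with none higher, where 4.18% of all genes fell and 5.11% rose. Beside Oat, Sds and Hpd, a tyrosine breakdown enzyme that lost its call in 6 of the 8 fits that left out 1 rat (adjusted p up to 0.109), the glutaminase Gls2 was 5954, 4174, 5748 and 5955 in dosed rats, against 10740, 10640, 9823 and 8591 in vehicle rats (-0.87 ± 0.12, adjusted p = 2.47e-06). The urea cycle enzymes Cps1 (0.00), Otc (-0.13) and Ass1 (-0.31) did not pass. Of 13 pericentral genes, which mark the hepatocytes around the central vein where the alkaloid is oxidised, 4 fell and 1, Gstm3, rose, with a median of -0.37. Glul, glutamine synthetase, gave -0.79 ± 0.15 on the brightest of its 3 probe sets, but -0.18 ± 0.13 and -0.08 ± 0.11 with no call on the other 2. Cyp2e1 (-0.13) did not pass. Hepatocyte markers showed little change in sum, 511900 to 605900 in dosed rats and 541400 to 597100 in vehicle rats. Albumin gave -0.01 ± 0.14, Apoa2 fell (-0.52 ± 0.10), Apoa1 rose (0.42 ± 0.10) and Cebpa fell (-0.44 ± 0.13, lost without dosed rat 2 or vehicle rat 1, adjusted p up to 0.175). Of 17 bile acid genes, 3 fell and none rose, Amacr, Baat and Slc27a5, and Baat and Slc27a5 lost their calls in 5 and 7 of the 8 fits that left out 1 rat.

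The growth hormone axis, which sets the male and female patterns of rat liver, had 1 of 14 genes higher and 2 lower, where 5.11% of all genes were higher and 4.18% lower. Cyp2c12, an oxidase normally dominant in female rats, was 3120, 4190, 4130 and 3294 in these dosed males, against 678, 868, 838 and 878 in vehicle males (2.15 ± 0.31, adjusted p = 5.81e-06). The male oxidase Cyp2c11 (-0.30 ± 0.12, adjusted p = 0.123) did not pass. Igfbp3, the main carrier of IGF-1, was 653 to 1896 in dosed rats and 2236 to 2703 in vehicle rats (-1.08 ± 0.19), with a second probe set at -1.41 ± 0.20, and Igfals, its partner, changed by -0.72 ± 0.18.

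Iron and blood genes were also shifted. Tfrc, the transferrin receptor, was 7476, 8010, 12780 and 7297 in dosed rats, against 2578, 3352, 2200 and 2159 in vehicle rats (1.77 ± 0.17, adjusted p = 6.8e-10), and its second probe set gave 1.64 ± 0.19. Metallothionein Mt2A was 3195, 4581, 710 and 8472 in dosed rats, against 800, 774, 629 and 933 in vehicle rats (1.96 ± 0.42), so dosed rat 3 lay inside the vehicle range. Hjv, a coreceptor needed for hepcidin, and Slc40a1, the iron exporter, fell (-0.56 ± 0.15 and -0.34 ± 0.09). Hepcidin itself (Hamp) read 29650, 31880, 7580 and 30020 in dosed rats, against 23380, 20440, 26440 and 17300 in vehicle rats, with no call. Of 8 metallothionein and iron genes 3 rose, the zinc and iron carrier Slc39a14 being the third, and 2 fell. Over all genes 5.11% rose and 4.18% fell. Slc39a14 lost its call in 6 of the 8 fits that left out 1 rat (adjusted p up to 0.156). Hjv lost its call without dosed rat 4 (adjusted p = 0.0836) and Slc40a1 without dosed rat 2 (0.0864). Slc40a1 also lost its call for the mean of its 3 probe sets (-0.22, adjusted p = 0.186). Of 7 erythroid markers, 1 rose, Tfrc, which other cells also express, and 2 fell, Hbb, beta globin (4108 to 5964 in dosed rats, 9798 to 12870 in vehicle rats, -1.29 ± 0.25), and Alas2, its heme synthesis enzyme (100.0 to 175 in dosed rats, 360 to 433 in vehicle rats, -1.33 ± 0.28). The other erythroid markers Slc4a1 (-0.94), Epb42 (-0.24), Rhag (-0.21) and Ahsp (-0.06) did not pass. The summed signal of the 7 was 11710 to 17580 in dosed rats and 12540 to 16890 in vehicle rats, so the groups overlapped. Most of that sum was Hbb, which fell, and Tfrc, which rose, so the overlap does not show an unchanged erythroid signal.

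Clock genes had 3 of 15 members lower and none higher, where 4.18% of all genes fell and 5.11% rose. Per2 was 228, 185, 244 and 82.3 in dosed rats, against 523, 633, 425 and 275 in vehicle rats (-1.29 ± 0.29, adjusted p = 0.00233), with a dim second probe set at 0.22 ± 0.44 and no call for the mean of both (-0.54, adjusted p = 0.313). Cry1 was 279 to 406 in dosed rats and 559 to 798 in vehicle rats (-0.93 ± 0.17). Tef, a rhythmic transcription factor (-1.26 ± 0.33), was lost without dosed rat 1 (adjusted p = 0.102) and for the mean of its 3 probe sets (-0.71, adjusted p = 0.0703). The hour of day at dosing and at sacrifice was not given in the sources used here. Of stress genes, 3 of 19 targets of ER stress and ATF4 rose, Asns, asparagine synthetase (1.18 ± 0.27), Creld2 (1.05 ± 0.24) and Dnajb9 (0.55 ± 0.15). Creld2 was 10540 in dosed rat 2 and 2114 to 4404 in the other dosed rats, against 1866 to 2798 in vehicle rats, and lost its call without dosed rat 2 (adjusted p = 0.0545). Dnajb9 lost its call in 3 of the 8 fits that left out 1 rat (adjusted p up to 0.0885). Of 18 acute phase proteins, the endotoxin-binding protein Lbp (1.10 ± 0.20) and its regulator Stat3 (0.63 ± 0.20) rose and Apcs fell, with Lbp at 3383 to 11840 in dosed rats and 2401 to 3711 in vehicle rats. Stat3 lost its call without dosed rats 1, 2 or 4 or vehicle rats 1 or 2 (adjusted p up to 0.17), and Apcs in each of the 8 fits that left out 1 rat (up to 0.155). Stat3 also lost its call for the mean of its 2 probe sets (0.57, adjusted p = 0.0896).

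At 10 mg/kg the livers differed little from vehicle. Only 4 of 14217 genes passed (0.0281%), with 689 at an unadjusted p under 0.05 (4.85%). Mgmt (1.12 ± 0.16, adjusted p = 0.000222), Phlda3 (0.84 ± 0.16) and Vxn (1.65 ± 0.32) were higher and Angpt2, an angiopoietin (-1.63 ± 0.33), was lower at 10 mg/kg. Mgmt was 683 to 1054 in vehicle rats, 1590 to 2074 at 10 mg/kg and 3802 to 5087 at 50 mg/kg. Cdkn1a was likewise intermediate, at 1209 to 2474. Vxn was 35.5 to 140 in vehicle rats, 198 to 406 at 10 mg/kg and 275 to 309 at 50 mg/kg, so the ranges at the 2 doses overlapped. Angpt2 was 56.0 to 114 in vehicle rats, 2.57 to 41.5 at 10 mg/kg and 68.9 to 126 at 50 mg/kg. Set directly against 10 mg/kg, 1030 genes passed at 50 mg/kg (7.24%), 581 higher and 449 lower, with 421 higher and 542 lower when arrays were centred on their medians. The count was 586 without dosed rat 2 and 376 with all arrays of the series in 1 fit. The same vehicle rats serve both doses, so the 2 lists of calls against vehicle are not independent. The largest differences between the doses were Adam8 (3.77) and Cyp1a1 (3.14) among the higher, and Stac3 (-4.08) and Inmt (-3.10) among the lower.

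Over time the dose of 50 mg/kg was set against the vehicle rats of each time. The share of genes called was 35.2% at 6 h, 11.3% at 24 h and 9.29% at 48 h. At 6 h all dosed and vehicle arrays were hybridised on different days, so day and dose cannot be told apart there, and at 24 h 3 of the 4 dosed rats were on another day than the vehicle rats. Of the 727 genes higher at 48 h, 197 were also higher at 24 h (27.1% of those at 48 h and 22.8% of those at 24 h), and 187 of the 594 lower genes were also lower at 24 h (31.5% and 25.4%). At all 3 times 100 genes were higher and 120 lower. Past the threshold at 48 h and at neither 6 nor 24 h were 205 higher and 174 lower genes. The change at 48 h differed from that at 24 h for 639 genes (4.49%; 319 higher and 320 lower, or 249 and 345 with arrays centred on their medians), for 232 with the same-day dosed rat alone at 24 h, and for 113 with the hybridisation day as a block in a fit of all arrays of the series.

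Lipid synthesis genes differed between 24 and 48 h. Of 15 cholesterol genes, 9 fell and none rose at 24 h (median -0.51; 5.18% of all genes were lower and 6.07% higher then), whereas at 48 h 7 rose and none fell. The change at 48 h was above that at 24 h for 11 of them by the test of the difference, as for 2.24% of all genes. Fdps changed by -1.25 at 6 h, -0.82 at 24 h and 0.89 at 48 h, and its difference between 48 and 24 h was 1.71 ± 0.19 (adjusted p = 1.15e-07), at 1.79 with day as a block (adjusted p = 0.0368) and 1.71 with the same-day rat (adjusted p = 0.000169). The other 6 genes that rose at 48 h differed by 1.18 to 1.78 between 48 and 24 h, but none of them passed with day as a block (adjusted p of 0.139 to 0.594), and with the same-day rat Lss and Hsd17b7 passed. Of 17 fatty acid genes, 15 fell at 24 h (median -1.54) and 8 had a higher change at 48 h. Fasn changed by -1.50, -2.76 and 0.76 at the 3 times (difference of 48 and 24 h 3.53 ± 0.44, adjusted p = 1.13e-06) and Acaca by -2.86, -1.58 and 1.02 (2.59 ± 0.28, adjusted p = 6.86e-08). Both differences passed with day as a block (adjusted p = 0.00982 and 0.00113).

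Tfrc, Cyp1a1 and vascular genes also differed in time. Tfrc changed by 0.04 at 6 h, -0.48 at 24 h and 1.77 at 48 h (difference of 48 and 24 h 2.25 ± 0.24, adjusted p = 6.86e-08, and 9.41e-08 with day as a block). Cyp1a1 changed by 0.01, 0.31 and 3.33, Esm1 by 0.45, -0.47 and 2.46, and Col4a1 by -0.13, -0.08 and 0.97. Their differences between 48 and 24 h passed in the fit of monocrotaline arrays (adjusted p = 0.00486, 0.0027 and 0.000155) but not with day as a block (adjusted p = 0.065, 0.171 and 0.0674). In size, the differences of Cyp1a1, Esm1 and Col4a1 were 3.02, 2.94 and 1.05 in the fit of monocrotaline arrays. With day as a block they were 3.159, 2.501 and 1.277, and with the same-day rat alone 3.46, 2.43 and 1.13. The fit with day as a block also held all arrays of the series. Whether day or the added arrays cost the calls was not tested. Kdr changed by -0.77 at 6 h, -0.23 at 24 h and -0.90 at 48 h. Of the 22 p53 genes measured, 12 rose at 6 h, 13 at 24 h and 9 at 48 h, with 1 lower at 6 h and 1 at 24 h, and at 6 h 17.5% of all genes were higher and 17.7% lower. Cdkn1a changed by 2.37, 2.97 and 2.42 and Ccng1 by 2.81, 2.41 and 2.05 at the 3 times, whereas Mgmt changed by -0.34, 2.43 and 2.31.

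**Figure D4:**
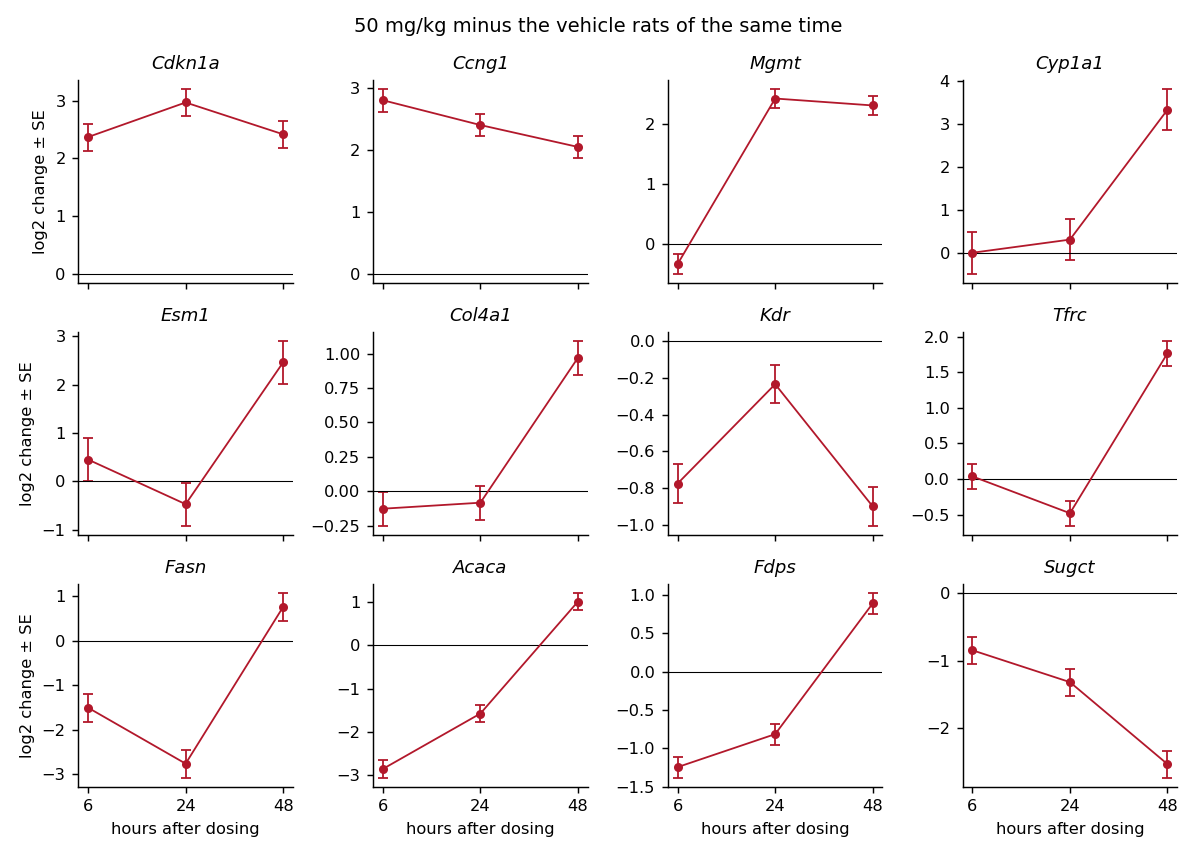
Change of 12 genes at 50 mg/kg (log2, dosed minus vehicle rats of the same time, with bars of 1 SE) against hours after dosing. Cdkn1a and Ccng1 were high at all 3 times, Mgmt at 24 and 48 h, and Cyp1a1, Esm1, Col4a1 and Tfrc at 48 h, while Fasn, Acaca and Fdps were below 0 at 6 and 24 h and above 0 at 48 h.

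Very long genes were frequent among the largest falls. Of the 15 largest falls, 5 were genes over 300 kb (429 of 14167 genes with a known length, 3.03%, were that long), and of the 15 largest rises none was. This was noticed in the data and is given as a description with no test. Fhit, a diadenosine hydrolase of 1507.5 kb, was 13.5, 14.1, 88.5 and 69.1 in dosed rats, against 275, 224, 250 and 263 in vehicle rats (-2.34 ± 0.40). Dab1, a reelin adaptor of 1121.1 kb, was 5.35 to 31.6 in dosed rats and 147 to 182 in vehicle rats (-2.56 ± 0.44). The 3 other probe sets of Dab1, all dimmer, gave -0.86, -1.05 and -0.12 with no call. Sugct, a mitochondrial CoA transferase of 857.8 kb, was 80.9, 40.6, 81.9 and 82.1 in dosed rats, against 445, 558, 449 and 460 in vehicle rats (-2.53 ± 0.20, adjusted p = 1.94e-12). Every dosed rat lay far below every vehicle rat in Fhit, Dab1 and Sugct, though the choice of the largest falls required groups without overlap. Lrmda (1059.0 kb, -2.67 ± 0.40) and Slc25a21, a mitochondrial carrier (499.5 kb, -2.28 ± 0.42), were the other 2, and Immp2l, a mitochondrial peptidase subunit of 899.7 kb, fell by 1.77. A dim second probe set of Lrmda gave -0.51 ± 0.43 with no call. In human, FHIT, DAB1 and IMMP2L lie at common fragile sites.

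Over the 7109 brighter genes, 18 of the 95 genes over 300 kb fell (18.9%) and 3 rose (3.16%), with a median change of -0.20, beside 7.36% lower and 8.72% higher and a median of -0.00 over all brighter genes with a length. In genes up to 10 kb the shares were 7.51% lower and 12.7% higher. Bright and dim genes together, 29 of the 429 over 300 kb fell (6.76%) and 3 rose (0.699%), with a median of -0.13. Beside these, 4.19% of all genes with a length were lower and 5.12% higher. Fhit, Dab1, Lrmda and Slc25a21 are not among the brighter genes. The median of the brighter long genes less that of all brighter genes was -0.23, -0.24, -0.12 and -0.23 in dosed rats 1 to 4, between -0.01 and 0.04 at 10 mg/kg, and between -0.06 and 0.03 in vehicle rats. The exceptions that rose were Sema6d, a semaphorin of 592.9 kb (0.72 ± 0.16), Pakap (0.57 ± 0.14) and Fndc3b (0.55 ± 0.14), the call of Fndc3b being lost in 2 of the 8 fits that left out 1 rat. The 3 other probe sets of Pakap gave 0.06, -0.70 and 0.40 with no call, and the mean of the 4 gave 0.08 (adjusted p = 0.893). At earlier times the same 95 genes had medians of -1.49 at 6 h and -0.26 at 24 h, with 82 and 38 of them lower. Among 74 dosed groups of the series, the rats at 50 mg/kg and 48 h held rank 32 for this shift, counted from the most negative. Vps13b changed by -3.10, -2.02 and -1.05 at 6, 24 and 48 h and Dpyd, which breaks down pyrimidines, by -1.67, -1.89 and -0.65, and Sugct by -0.85, -1.32 and -2.53. The difference between 48 and 24 h did not pass for Vps13b (0.97, adjusted p = 0.146), and those of Dpyd (1.24, adjusted p = 0.00022) and Sugct (-1.21, adjusted p = 0.0062) did not pass with day as a block (adjusted p = 0.192 and 0.247). In size, Dpyd gave 0.97 with day as a block and 0.73 with the same-day rat alone, and Sugct gave -1.04 and -0.89. At 6 h dose and day cannot be told apart.

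**Figure D5:**
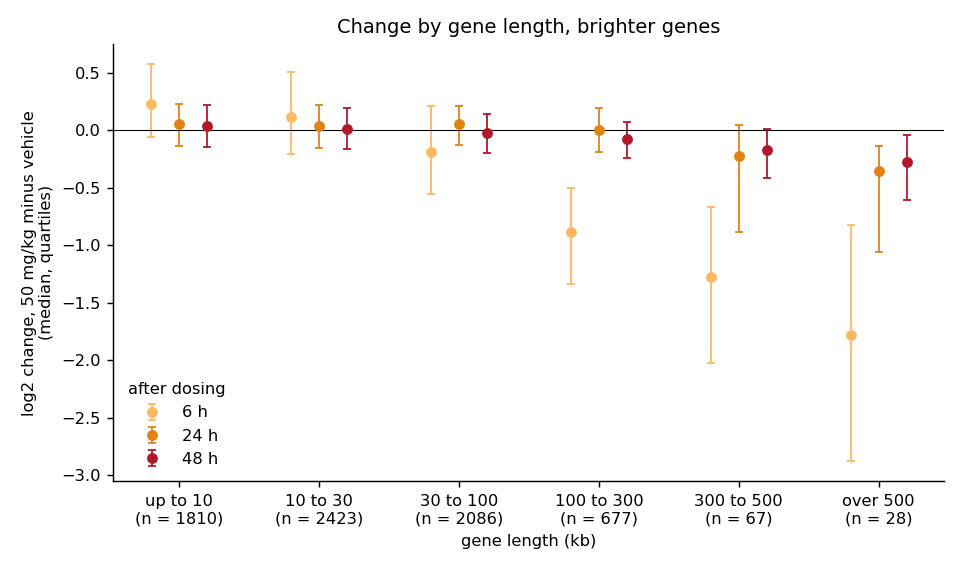
Median log2 change (50 mg/kg minus vehicle, with bars from the lower to the upper quartile) of the brighter genes by gene length in kb, at 6, 24 and 48 h. The lowest median at each time was that of the 28 genes over 500 kb, at -1.78 at 6 h, -0.35 at 24 h and -0.28 at 48 h.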

How the data were processed

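Liver RNA of single rats was hybridised to 1-colour Affymetrix arrays, and the authors deposited MAS5 values on a log2 scale, per the labels. The deposited log2 values, turned back to linear signals, had a 2% trimmed mean of 499.64 to 499.81 on every array. The MAS5 version was not given in the sources used here. The arrays carry 31099 probe sets, of which the platform annotation gives 20826 a single symbol, 436 several and 9780 none, and 57 are controls. For the 4525 of 14217 genes with several probe sets the brightest was used. Differences of log2(signal + 16) were tested with limma 3.58.1 in R 4.3.3, with a trend of the spread on level, over 44 monocrotaline arrays in 11 groups (33 residual degrees of freedom). The threshold was a Benjamini-Hochberg adjusted p of 0.05 over all genes. The code was tested on simulated data. Groups came from the labels. Gene lengths of 14167 genes and promoters came from RefSeq (GRCr8), whose coordinates are those printed. The brighter genes are the 7109 with the higher mean signal. Named genes were the 15 largest rises and 15 largest falls past the threshold without overlap, up to 4 members of each of 38 lists with the smallest p, list members given with their values, and the 6 largest differences each way between doses or times. Other long genes were chosen after their values were seen. Members and lists were chosen with earlier results of these data known. Alternatives were median centring, quantile normalization, pseudocounts of 1 and 64, brighter genes alone, the mean of probe sets, the compared groups alone, all arrays, the day as a block, and each array left out. The arrays of the other compounds entered only the fit of all arrays and the rank of the long-gene shift.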

Additional observations from a re-analysis of the deposited data

Results flagged for a closer look

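Each group of 4 rats was examined by Dixon's test at its 95% level, which chance alone meets in about 1 group in 20. The test sets the gap against the range of the 4 on the log2 scale, so a flagged gap can be small, as for Amacr. In 1 rat of 4 the signal stood apart from the other 3, by this test, in 29 of 374 groups of rats. Among dosed rats these were Lrmda 57.9 in rat 1 (4.26 to 6.68 in the other 3), Sugct 40.6 in rat 2 (80.9 to 82.1 in the other 3), Thbd 324 in rat 3 (644 to 727 in the other 3) and Plaur 10.8 in rat 1 (88.6 to 107 in the other 3). Further such signals of dosed rats were Tfpi 987 in rat 2 (774 to 786 in the other 3), Lgals3 2371 in rat 3 (3653 to 3961 in the other 3), Gls2 4174 in rat 2 (5748 to 5955 in the other 3) and Tfrc 12780 in rat 3 (7297 to 8010 in the other 3). The remaining dosed rats' signals were Hamp 7580 in rat 3 (29650 to 31880 in the other 3), Stab1 169 in rat 4 (271 to 296 in the other 3), Scd 8543 in rat 2 (23270 to 26310 in the other 3) and Apcs 17690 in rat 3 (21420 to 21470 in the other 3). Among vehicle rats the signals apart were Cdkn1a 1040 in rat 3 (831 to 863 in the other 3), Cyp3a9 5682 in rat 4 (7037 to 7176 in the other 3), Dab1 182 in rat 4 (147 to 148 in the other 3) and Sugct 558 in rat 2 (445 to 460 in the other 3). Others in vehicle rats were S100a9 421 in rat 4 (109 to 138 in the other 3), Cd5l 5251 in rat 4 (4027 to 4141 in the other 3), Mcm7 294 in rat 4 (541 to 596 in the other 3) and Msmo1 5328 in rat 2 (4120 to 4143 in the other 3). Vehicle rats also gave Tef 201 in rat 3 (350 to 380 in the other 3), Vps13b 381 in rat 4 (594 to 650 in the other 3), S100a4 160 in rat 1 (45.6 to 57 in the other 3) and Amacr 21060 in rat 2 (22300 to 22390 in the other 3). Further signals of vehicle rats were Slco1a4 19670 in rat 4 (22160 to 22600 in the other 3), Dpyd 5683 in rat 4 (6390 to 6489 in the other 3), Trappc9 533 in rat 4 (403 to 418 in the other 3) and Pakap 618 in rat 4 (844 to 897 in the other 3). The last in vehicle rats were Rhag 85.7 in rat 4 (4.22 to 9.28 in the other 3).

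The change at 50 mg/kg differed between 48 and 24 h, by the limma test of the difference itself, for 38 of the named genes, as log2 change at 48 h minus that at 24 h. Some genes were named for being among the largest differences of this same test, so they had to pass. The number 38 is therefore no result about the named genes. Over all genes 4.49% passed. It was higher at 48 h for 31, which were Elovl6 (3.82), Fasn (3.53), Cyp1a1 (3.02), Esm1 (2.94), Ica1 (2.69), Acaca (2.59), Tfrc (2.25), Hsd17b7 (1.78), Tubb6 (1.74), Fdps (1.71) and Cyp7a1 (1.66), then Sqle (1.62), Lss (1.59), Asns (1.53), Idi1 (1.48), Angptl4 (1.35), Hmox1 (1.25), Dpyd (1.24), Msmo1 (1.20), Fdft1 (1.18) and Creld2 (1.15), and Pakap (1.11), Trappc9 (1.11), Tubb5 (1.08), Col4a1 (1.05), Lbp (1.05), Cyp1a2 (0.97), Gpnmb (0.95), Vim (0.80), Lyve1 (0.53) and Dgat2 (0.47). It was lower at 48 h for 7, which were Hamp (-3.26), Vxn (-2.28), Per2 (-1.71), Akr7a3 (-1.64), Sugct (-1.21), Cry1 (-0.99) and Kdr (-0.66). At 24 h 3 of the 4 dosed rats were hybridised on another day than their vehicle rats. All 38 kept their sign with day as a block and with the same-day dosed rat alone, 8 passed with day as a block and 16 with the same-day rat.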

How the results depend on the processing

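Each count was recomputed with other scalings, pseudocounts, gene filters, probe set rules and sets of arrays. With all arrays of the series in 1 fit, the genes changed at 50 mg/kg numbered 628 (1321 as reported), those at 10 mg/kg 2 (4), those different between 50 and 10 mg/kg 376 (1030) and those whose change differed between 48 and 24 h 202 (639). Blocking on day there left 113 of the last kind, and the same-day 24 h rat alone gave 232. At 10 mg/kg it was 2 over the brighter genes and 1 with the compared groups alone. Leaving out 1 array gave 845 (without dosed rat 2) to 1450 genes at 50 mg/kg, 1 to 4 at 10 mg/kg, 586 (without dosed rat 2) to 1177 between doses, 487 to 776 between 48 and 24 h, 3216 to 3373 between 48 and 6 h, and a mean necrosis score of 1 to 1.33. Centring arrays on their medians gave 421 higher and 542 lower genes between doses (581 and 449 as reported), 249 and 345 between 48 and 24 h (319 and 320), and 1447 and 1982 between 48 and 6 h (1781 and 1690), where it moved the median of all genes to -0.10. Of 146 named genes that passed, 69 did so under every alternative and 105 in every fit that left out 1 array, and no direction turned. The shift of long genes, whose alternatives were chosen after seeing the data, was -0.13 over all genes over 300 kb. No paired analysis was possible because the labels give no replicate numbers. The cause of these differences was not tested. Dim probe sets limit what can be read, and 4 rats a group limit the precision.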
